A study of Arabidopsis thaliana with 6 samples.

Results

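The 5 genes described here encode the glyceraldehyde-3-phosphate dehydrogenases of Arabidopsis thaliana that serve glycolysis: the cytosolic enzymes GAPC1 (AT3G04120) and GAPC2 (AT1G13440), the non-phosphorylating enzyme NP-GAPDH (ALDH11A3, AT2G24270), and the plastid enzymes GAPCP1 (AT1G79530) and GAPCP2 (AT1G16300). They are 5 of 27444 protein-coding genes on the nuclear chromosomes. Binding of the transcription factor NLP2 was measured by chromatin immunoprecipitation and sequencing (ChIP-seq), and every peak was taken whose summit lay inside one of these genes or within 5000 bp of it. This rule gave 3 of the 593 peaks at T30, 30 min after 3 mM nitrate was given, and 0 of the 579 peaks at T0, without nitrate. The members were chosen by enzyme family with the positions and folds of the T30 and T0 peaks known, so their counts and folds are a description and carry no test.

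All libraries came from whole 14-day-old seedlings of the nlp2-2 mutant in Col-0, complemented with a pNLP2::NLP2-GFP construct, so that NLP2 fused to green fluorescent protein was made from the NLP2 promoter at both times. None of the 6 libraries is labelled as an immunoprecipitate from plants without the fusion. The protocol gives 10 days in 3 mM nitrate medium and 3 days without nitrogen, with chloride in place of nitrate. At T30 the medium was then changed for 3 mM nitrate for 30 min, and at T0 for fresh nitrogen-free solution. Antibodies against GFP gave 2 immunoprecipitated (IP) libraries per time, and 1 input library per time had no antibody. The 2 IP libraries of a time were pooled by the authors into 1 peak list, so the replicates have no values of their own and the error of a fold or of a peak's presence is unknown. Read depth is unknown from these lists. In whole seedlings, binding in more cells and more binding per cell cannot be told apart.

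Glyceraldehyde-3-phosphate dehydrogenase (GAPDH) works in the middle of glycolysis. GAPC1 and GAPC2 oxidise glyceraldehyde-3-phosphate in the cytosol, gaining NADH and a high-energy phosphate for ATP synthesis, and GAPCP1 and GAPCP2 do the same in plastids, chiefly where photosynthesis does not supply them. NP-GAPDH takes a cytosolic bypass that yields NADPH and no ATP. Nitrate reduction and ammonium assimilation use reductant, ATP and carbon skeletons that glycolysis helps to supply, and NLP2 belongs to the NIN-like proteins, which regulate genes in response to nitrate.

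One cytosolic gene and both plastid genes had a peak with nitrate, and none of the 5 had one without it. At T30 GAPC2, GAPCP1 and GAPCP2 each had 1 peak, and GAPC1 and NP-GAPDH had 0. These 3 of 5 genes (60.0%) compare with 5.41% of all protein-coding genes that had a T30 summit inside or within 5000 bp. At T0 the count was 0 of 5, against 3.76% of protein-coding genes, and at such a share a count of 0 among 5 genes is no result about them. All 3 summits also lay inside their gene or within 1000 bp of it, where 1.91% of protein-coding genes had a T30 summit and 1.35% a T0 summit. Each had the GAPDH gene as its nearest protein-coding gene, a relation found for 1.84% of protein-coding genes at T30.

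GAPC2, the cytosolic gene, had the highest fold of these genes. Its T30 peak spanned positions 4611178 to 4611881 of chromosome 1 (TAIR10, 1-based), with the summit at 4611511. The authors' fold of this peak, their enrichment value for it, was 7.75, and its −log10 q was 484. By fold it stood at rank 15 of 593, with 97.5% of the T30 peaks lower, and its fold was 2.82 times the list's median of 2.75. The peak was 704 bp wide, wider than 83.0% of the T30 peaks, whose median width was 435 bp, and the summit lay near the middle of it, at 47.3% of its width.

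The GAPC2 summit lay outside the gene, more than 500 bp and less than 1000 bp from one end. On the far side of it stood the gene of the trihelix DNA-binding protein GT-1 (AT1G13450), more than 1000 bp away, and no other protein-coding gene had this summit within 1000 bp. Of all annotated genes, a long non-coding RNA gene, AT1G05013, was the nearest, within 500 bp of the summit. The nearest other T30 summit was 31525 bp from that of GAPC2, and the nearest T0 summit 110727 bp. For the GAPCP2 and GAPCP1 summits the nearest other T30 summit was 34427 bp and 7368 bp away.

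**Figure D1:**
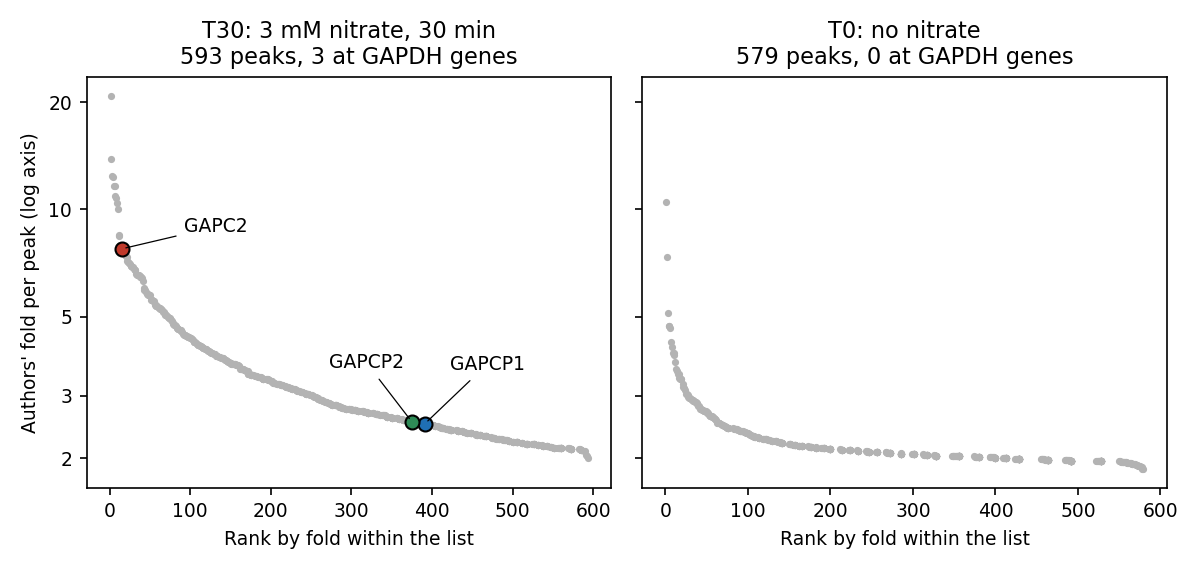
The authors' fold of every peak (vertical log axis) against its rank in its own list (horizontal axis), at T30 on the left and T0 on the right; each point is 1 peak of a list pooled from 2 IP libraries. GAPC2 stood at rank 15 of the 593 T30 peaks with a fold of 7.75, GAPCP2 and GAPCP1 at ranks 375 and 391 with folds of 2.53 and 2.50, and none of the 579 T0 peaks belonged to these genes; the lists were called separately, so heights are read within a panel only.

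The plastid genes GAPCP1 and GAPCP2 had peaks much like each other and well below that of GAPC2. The GAPCP1 peak ran on chromosome 1 from 29918923 to 29919397, with the summit at 29919164. It had a fold of 2.50, a −log10 q of 38.2 and a width of 475 bp. The GAPCP2 peak ran on chromosome 1 from 5574175 to 5574592, with the summit at 5574372, a fold of 2.53, a −log10 q of 36.6 and a width of 418 bp. Both folds lay below the list's median: GAPCP2 stood at rank 375 and GAPCP1 at rank 391, with 36.3% and 34.1% of T30 peaks lower. The fold of the GAPC2 peak was 3.06 times that of GAPCP2 and 3.10 times that of GAPCP1, while those of GAPCP2 and GAPCP1 stood in a ratio of 1.01. The error of these ratios is unknown.

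Both plastid genes held the summit inside the gene, as 0.718% of protein-coding genes did at T30, and within 250 bp of one of its ends. Among the 195 T30 summits that lay inside a protein-coding gene, 116 (59.5%) were that close to an end. Which end carries the start of transcription was not analysed here. Each of these summits was shared with a neighbour, within 1000 bp: the GAPCP1 summit with AT1G79540 and the GAPCP2 summit with AT1G16290. A peak alone does not assign a summit to either of the adjoining genes. The nearest T0 summit was 22215 bp from that of GAPCP1 and 122414 bp from that of GAPCP2.

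Of the cytosolic pair, GAPC2 had a T30 peak and GAPC1 had none. At T30, 94.6% of protein-coding genes lay farther than 5000 bp from any summit. The absence of a peak at GAPC1 or NP-GAPDH is therefore no result about these genes, and no difference between GAPC1 and GAPC2 was tested. GAPC1, which catalyses the same reaction as GAPC2, lay on chromosome 3 in a stretch without peaks. Its nearest T30 peak, from 672184 to 672571 with a fold of 2.39, had its summit more than 400000 bp away, and 5.42% of protein-coding genes lay farther than GAPC1 from any T30 summit. Its nearest T0 peak, from 755332 to 755884 with a fold of 1.96, was more than 300000 bp away, and 13.7% of protein-coding genes lay farther from any T0 summit. NP-GAPDH, on chromosome 2, had its nearest T30 peak from 10383538 to 10383877, with a fold of 2.24 and more than 50000 bp away, and 62.9% of protein-coding genes lay farther from a T30 summit. Its nearest T0 summit was more than 100000 bp away.

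The absence of these 5 genes from a list says that no peak passed the authors' filters there. The lowest −log10 q kept was 20.4 at T30 and 16.1 at T0, so the T0 list reached further down in this value, and 322 of its 579 peaks lay below the T30 minimum. As the lists were called separately and read depth is unknown, these minima do not show which list was the more sensitive. The 3 GAPDH peaks overlapped no T0 IP peak, and none overlapped any of the 22 T30 input peaks or the 87 T0 input peaks. The names of the IP lists carry the tag noINPUT, whose meaning is not given. Peaks that overlap input may thus have been removed beforehand, and the absence of such overlap is no evidence about the GAPDH peaks. GAPC1 and GAPC2, and likewise GAPCP1 and GAPCP2, are related copies, and how reads that match both copies of a pair were treated is not given in the sources used here.

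The limit of 5000 bp decided nothing among the 5 genes. The farthest summit taken was that of GAPC2, within 1000 bp, and the nearest one left out lay within 10000 bp of GAPCP1. That peak spanned positions 29926223 to 29926733 of chromosome 1, had a fold of 2.28 and held its summit inside PGK3 (AT1G79550), the cytosolic phosphoglycerate kinase that carries out the next step of glycolysis. PGK3 is the second protein-coding gene from GAPCP1, with AT1G79540 between them, and the summits of the 2 peaks were 7368 bp apart. Each of the 2 genes held 1 of these T30 summits inside it, but the GAPCP1 summit also lay within 5000 bp of PGK3, and the PGK3 summit within 1000 bp of AT1G79560. Neither gene had a T0 summit within 5000 bp.

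A further 55 genes were read in the same way, in 5 lists by enzyme: the other steps of glycolysis, the photosynthetic GAPDH enzymes and phosphoenolpyruvate carboxylase. These lists too were chosen with earlier results of these data known, so their counts are a description and carry no test. At T30, 12 of the 55 (21.8%) had a summit inside or within 5000 bp, against 5.41% of all protein-coding genes, and 9 (16.4%) had one within 1000 bp, against 1.91%. At T0 the counts were 3 (5.45%, against 3.76%) and 1 (1.82%, against 1.35%). The highest fold per gene within 1000 bp at T30 had a median of 2.53 over the 3 GAPDH genes, 3.57 over the 9 other glycolytic genes and 2.83 over all 525 protein-coding genes with such a summit. GAPC2 therefore had a higher fold than any of the 9, whose highest was 6.88, and both plastid GAPDH genes stood below the medians of either set.

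The photosynthetic GAPDH genes GAPA1 (AT3G26650), GAPA2 (AT1G12900) and GAPB (AT1G42970), whose products reduce carbon in the Calvin cycle, had 0 summits within 5000 bp at T30 and 0 at T0. With 5.41% and 3.76% of all protein-coding genes having such a summit at T30 and T0, a count of 0 among 3 genes is no result about them, and no difference from the 5 glycolytic genes was tested.

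Among the steps before GAPDH, peaks lay at 1 isomerase gene and 2 aldolase genes at T30. Of 17 genes of hexose phosphorylation, isomerisation and phosphofructokinase, 1 had a T30 summit within 5000 bp (5.88%, near the 5.41% of all protein-coding genes), the plastid glucose-6-phosphate isomerase gene PGI1, with a fold of 5.32. The 4 hexokinase genes and 11 phosphofructokinase genes had 0 at T30, which at that share is no result about them. Of 10 aldolase and triose phosphate isomerase genes, 2 had a T30 summit within 5000 bp, a share above that of all protein-coding genes. The plastid aldolase gene FBA3 (PDE345, AT2G01140) had a fold of 6.88, at rank 28. The cytosolic aldolase gene FBA8 (AT3G52930) had a fold of 3.83. At T0 the count was also 2 of 10, FBA3 and cTPI, again a share above that of all protein-coding genes. The raised share was thus not particular to T30, and neither count was tested. The T0 peak of FBA3 lay on chromosome 2. This one spanned 94981 to 96217 and had a fold of 1.98, at rank 464 of 579. It overlapped the T30 peak, from 96205 to 97099, by 13 bp only, and the summits lay 1672 bp apart. No triose phosphate isomerase gene had a T30 summit within 5000 bp, whereas cTPI and the hexokinase gene HXK3 had T0 summits within 5000 bp, with folds of 2.12 and 2.21, each nearer to another gene.

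**Figure D2:**
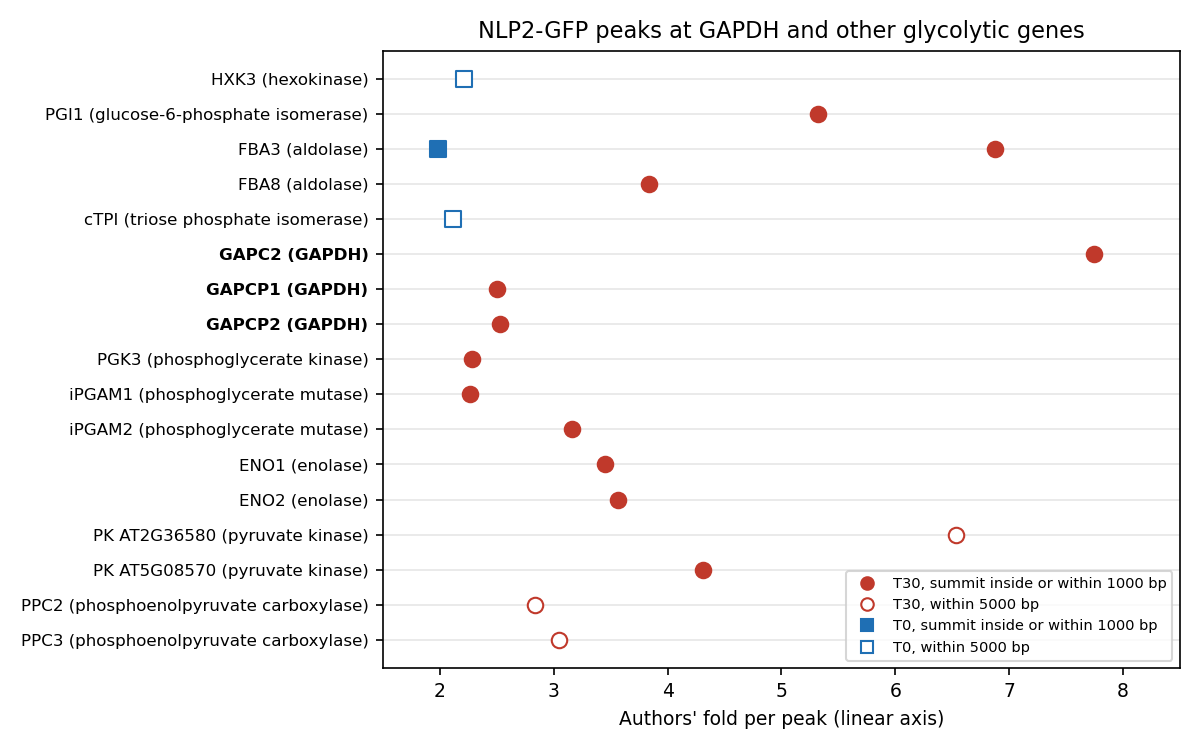
The authors' fold of each peak (horizontal linear axis) for every GAPDH gene (bold) and other glycolytic or phosphoenolpyruvate carboxylase gene with a summit inside or within 5000 bp, ordered down the page by pathway step. Red circles are T30 peaks, blue squares T0 peaks, and filled symbols have the summit inside or within 1000 bp. The GAPCP1 peak, whose summit also lay within 5000 bp of PGK3, is drawn at GAPCP1 only. GAPC2 had the highest fold, 7.75. Below the GAPDH step every enzyme down to pyruvate kinase had a filled T30 circle, with folds of 2.27 to 4.32. The steps were grouped after the values were seen.

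Among the steps after GAPDH, each enzyme down to pyruvate kinase had at least 1 gene with a T30 summit within 1000 bp. The grouping by step was made after the values were seen, so this run of steps is a description and was not tested. Of 21 genes from phosphoglycerate kinase to pyruvate kinase, 7 had a T30 summit within 5000 bp (33.3%, against 5.41% of all protein-coding genes) and 6 within 1000 bp (28.6%, against 1.91%). At T0 0 of the 21 had one within 5000 bp, which is close to the 3.76% of all protein-coding genes. Besides PGK3, these were both phosphoglycerate mutase genes, iPGAM1 with a fold of 2.27 and iPGAM2 with 3.16, and 2 of the 3 enolase genes, the plastid ENO1 with 3.45 and the cytosolic ENO2 (LOS2) with 3.57. Of the 13 pyruvate kinase genes, AT5G08570 had a summit within 500 bp with a fold of 4.32. AT2G36580 had one within 2000 bp with a fold of 6.53, at rank 35. The summits of ENO2 and AT2G36580 were 14096 bp apart on chromosome 2. Some of these summits lay nearer to other genes: that of iPGAM2 lay inside the mitochondrial ADP/ATP carrier gene AAC1, and those of the pyruvate kinase genes were nearest to AT5G08565 and AT2G36570. By the nearest protein-coding gene the T30 count was 4 of the 21, against 1.84% of all protein-coding genes. For pyruvate kinase it was 0 of 13, which at that share is no result about them.

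Phosphoenolpyruvate carboxylase, which draws carbon from glycolysis into organic acids, had 2 of 4 genes with a T30 summit within 5000 bp. Of all protein-coding genes, 5.41% had such a summit. Within 1000 bp the T30 count was 0 of 4, against 1.91% of all protein-coding genes. PPC3 had a T30 summit within 2000 bp with a fold of 3.04, nearest to HEME1. PPC2 had one within 5000 bp with a fold of 2.84 and no nearer protein-coding gene. At T0 the 4 genes had 0 summits within 5000 bp, against 3.76% of all protein-coding genes. With 4 genes, neither 0 is a result about them, and the T30 count of 2 within 5000 bp was not tested.

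Inside genes, summits of the glycolytic peaks lay near an end, as those of GAPCP1 and GAPCP2 did. PGI1, FBA3, PGK3, iPGAM1, ENO1 and ENO2 each held a T30 summit within 250 bp of one of their ends. The T0 summit of FBA3 lay farther in, within 500 bp of an end. Of all summits inside a protein-coding gene, 59.5% lay within 250 bp of an end at T30, against 10.0% (26 of 259) at T0; the lists were called separately and this share was not tested.

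**Figure D3:**
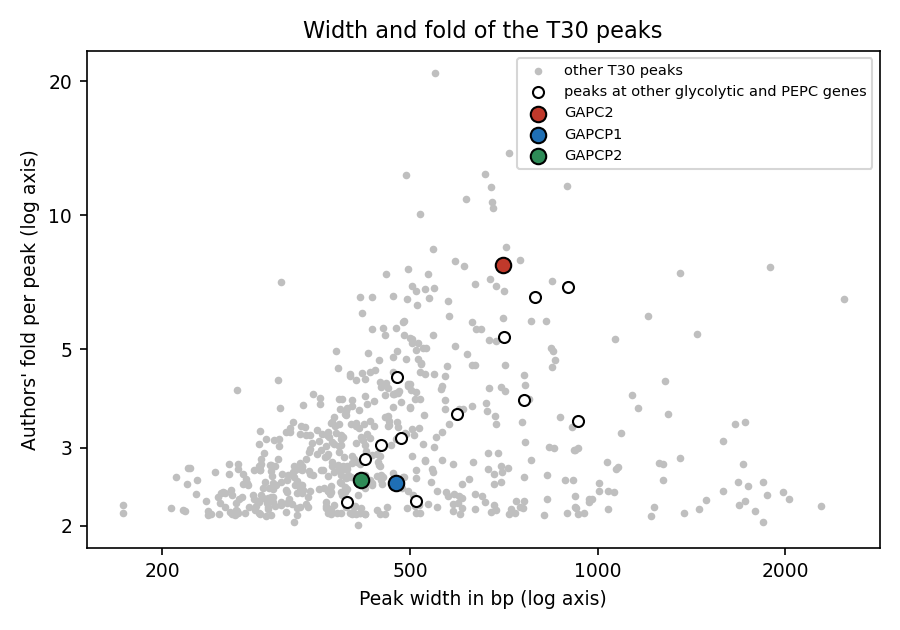
The authors' fold (vertical log axis) against peak width in bp (horizontal log axis) for the 593 T30 peaks; coloured points are the 3 GAPDH peaks, open circles the peaks at other glycolytic and phosphoenolpyruvate carboxylase (PEPC) genes, and grey points all others. GAPC2, 704 bp wide with a fold of 7.75, stood apart from GAPCP1 and GAPCP2, which at 475 and 418 bp lay near the median width of 435 bp with folds of 2.50 and 2.53.

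The genes most like each member were taken as those nearest to it in T30 fold, among the 492 protein-coding genes with a T30 summit within 1000 bp and no T0 summit there. This likeness rests on 1 value in 1 pooled list and on presence at 1 of 2 times. Next above GAPC2 stood PP2CA, an abscisic acid signalling phosphatase gene, with a fold of 7.88, and AT1G32910 with 8.40. Next below it stood AT5G41670 and AT5G41680, which shared a peak with a fold of 7.63. GAPCP2 lay between AT4G39780 and AT5G26200, both at 2.54, and the oleate desaturase gene FAD2 at 2.53 and AT3G57440 at 2.52. GAPCP1 lay between DFL2 and AT5G62890, both at 2.50, and ZFP8 and AT2G41945, both at 2.49. Without a replicate error, none of these neighbouring folds can be told from that of the GAPDH gene beside it.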

How the data were processed

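TAIR10 is the build named in the submitters' processing notes, which list MACS2 2.1.1, Bowtie2 2.3.4.1 and SAMtools 1.7 as tools. The authors deposited 1 IP peak list and 1 input peak list per time. The names of the IP lists give pooled replicates and a reproducibility filter (IDR); their further tags are not explained there. Per the file headers, each peak has a fold (a ratio), a −log10 q value and a summit offset. The deposited score, in all IP peaks −log10 q times 10 without its decimals, was not used further.

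Summits were placed against protein-coding genes of the RefSeq table of assembly TAIR10.1 with Python 3.11.15 and pandas 2.3.3, assuming equal nuclear coordinates in both assemblies. That table gives no strand, exons or sequence, so distances are in classes of 250 to 10000 bp, and no motif was searched and no sequence printed. All 60 locus codes of the lists were found. The window code was tested on simulated summits. Peaks overlapped when they shared at least 1 bp. Folds were compared within a list only, and no p-value was computed, since the lists hold no replicates.

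Members and lists were chosen with earlier results of these data known. Named genes were the members, the genes beside their summits, the photosynthetic GAPDH genes, list members with a summit within 1000 bp (beyond that up to 5 by fold) and, for each member with a peak, the 2 genes next above and 2 next below in fold. The grouping by enzyme step was made after the values were seen.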

Additional observations from a re-analysis of the deposited data

How the results depend on the processing

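The 3 GAPDH genes with a T30 summit were also 3 with a flank of 1000 or 2000 bp, by the nearest protein-coding gene and by any base of the peak. The narrower flanks could only give 3, since all 3 summits lay within 1000 bp. Any base of the peak could not add GAPC1 or NP-GAPDH, more than 400000 and 50000 bp from a T30 summit, as the widest T30 peak was 2483 bp. The nearest-gene rule could have given fewer. Leaving out peaks that overlap an input peak also gave 3, but could not differ, since no member peak overlapped one. With T30 peaks at or above the median fold alone the count was 1, GAPC2, since the other 2 folds lie below that median. At T0 the count was 0 under every alternative run. Narrower flanks, and the T30 minimum of −log10 q applied to the T0 list, could only give 0 again. Any base of the peak could not give more either, since the widest T0 peak was 4173 bp and the nearest T0 summits lay much farther out. For GAPC1, GAPC2, NP-GAPDH and GAPCP2 they were more than 100000 bp from the gene, and for GAPCP1 22215 bp from its T30 summit. At such distances the nearest-gene rule had little room to differ, so its count of 0 adds little. Ranked by −log10 q in place of fold, GAPC2 stood at 16, GAPCP1 at 371 and GAPCP2 at 383, so the plastid genes changed places. Of the other 55 genes, 8 to 11 had a T30 summit under the narrower windows or the nearest-gene rule, in place of 12. Those with a T0 summit numbered 1 with a flank of 1000 bp, 1 with 2000 bp and 1 by the nearest gene, in place of 3: the T0 summits of cTPI and HXK3 lay outside the narrower windows and were nearer to another gene. No member peak shared even 1 bp with a peak of the other time, so asking for 50% of the shorter peak could only give the same answer. Chosen after seeing the data, a flank of 10000 bp gave 4 member peaks in place of 3, and with genes of any kind 2 of the 3 peaks kept the GAPDH gene as nearest. The planned motif search was not run, since it needs the genome sequence. No paired analysis was possible because the deposited lists pool the replicates, and for the same reason no replicate could be left out.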
